A study of Saccharomyces cerevisiae with 12 samples.

Results

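The difference between wild type yeast and a pat1 mutant in their response to Congo Red was described across all genes that had 1 symbol. For each gene the signal without drug was subtracted from the signal with Congo Red within each biological sample, which gave 3 paired differences per strain. The wild type differences were then taken from the pat1 differences. A value below 0 therefore means that the response of the mutant lay below that of wild type, and a value above 0 that it lay above. All 5449 genes with 1 symbol were included, out of 5449, and all 12 arrays entered as 6 paired differences.

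Transcripts of Saccharomyces cerevisiae were measured on Affymetrix yeast arrays in BY4741, a haploid laboratory strain that lacks LEU2, MET17 and URA3 and carries a deletion in HIS3, and in a pat1 mutant of the same background. Cultures in exponential growth were kept for 2 h more in medium alone or with Congo Red at 30 µg/ml, and total RNA was labelled with biotin. The 4 groups were wild type without drug, wild type with Congo Red, pat1 without drug and pat1 with Congo Red, with 3 arrays each. The design text names 3 biological samples per strain, each read once without and once with the drug. How PAT1 was mutated, and whether the mutant was 1 clone, is not given in the labels. Since each array reads RNA of a whole culture, fewer cells carrying a transcript and less of that transcript per cell cannot be told apart.

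The dye Congo Red attaches to glucan and chitin, the main polymers of the yeast cell wall, and interferes with wall assembly. Cells sense the damage through membrane proteins that act on the GTPase Rho1 and protein kinase C, which start a kinase cascade ending in Slt2, and Slt2 acts on transcription factors such as Rlm1. Pat1 binds mRNA whose poly(A) tail has been shortened, together with the Lsm1-7 ring, and takes part in decapping, in translational repression and in the formation of processing bodies.

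PAT1 separated the strains on every array, at 10.50 to 10.93 (log2 signal) in wild type and 2.95 to 3.94 in the mutant. LEU2 and MET17 lay between 2.95 and 4.20 on all arrays, which gives the level of a deleted gene. The a-type genes MFA1, MFA2, STE2 and BAR1 lay between 11 and 13.66. Of the alpha-type genes, MF(ALPHA)1 lay between 3.74 and 4.98 and MF(ALPHA)2 between 4.82 and 5.5. STE3, the third, was higher on every pat1 array (6.32 to 7.33) than on any wild type array (at most 6.21). It lay above the level of deleted genes on all arrays, and the reason was not tested. HIS3, which carries a deletion in this background, still gave 10.53 to 11.18 on all arrays. URA3 went against the labelled background on 2 arrays. It gave 7.71 on the treated array of wild type sample 2 and 6.76 on the untreated array of pat1 sample 1, and 2.94 to 3.27 on the other 10. The untreated array of pat1 sample 1 also stood apart at DAN1, at 8.11 against 4.05 to 4.49 on the other untreated arrays, and at DIA1, at 10.05 against 7.6 to 7.90. Results are therefore given with all 6 samples, and described genes whose calls differed with both of these samples left out are named as such.

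Among genes whose paired differences did not overlap between strains, the largest differences belonged to transcripts with a strong rise in wild type and a smaller response in the mutant. URA3, whose samples overlapped, had a large difference that came from the 2 arrays with its signal, and it is left aside. Of 5449 genes, 3 passed the test of the difference (limma on the paired differences, Benjamini-Hochberg adjusted p under 0.05), and all 3 were lower in pat1. These were YJL107C, PRM10 and YNR065C. They make up 0.0551% of the genes tested, and no gene passed as higher in pat1 (0%). At an adjusted p under 0.1 there were 11 genes (0.202%), 10 lower and 1 higher. At an unadjusted p under 0.05 there were 659 (12.1%), 243 of them lower (4.46%) and 416 higher (7.63%).

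The count of 3 depended on single samples. It was 0 without wild type sample 2, without wild type sample 3, without pat1 sample 2 or without pat1 sample 3, where 261 to 879 genes had an unadjusted limma p under 0.05. It was 4 without wild type sample 1 and 10 without pat1 sample 1. Without both samples that carried URA3 signal, 47 genes passed, 45 lower and 2 higher, with the 3 genes among them. That fit compared 2 samples with 2 and had 2 residual degrees of freedom. Leaving out wild type sample 2 and pat1 sample 3 instead, also 2 against 2, gave 0. Without the pairing of arrays no gene passed in limma, and 130 had an unadjusted p under 0.05.

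**Figure D1:**
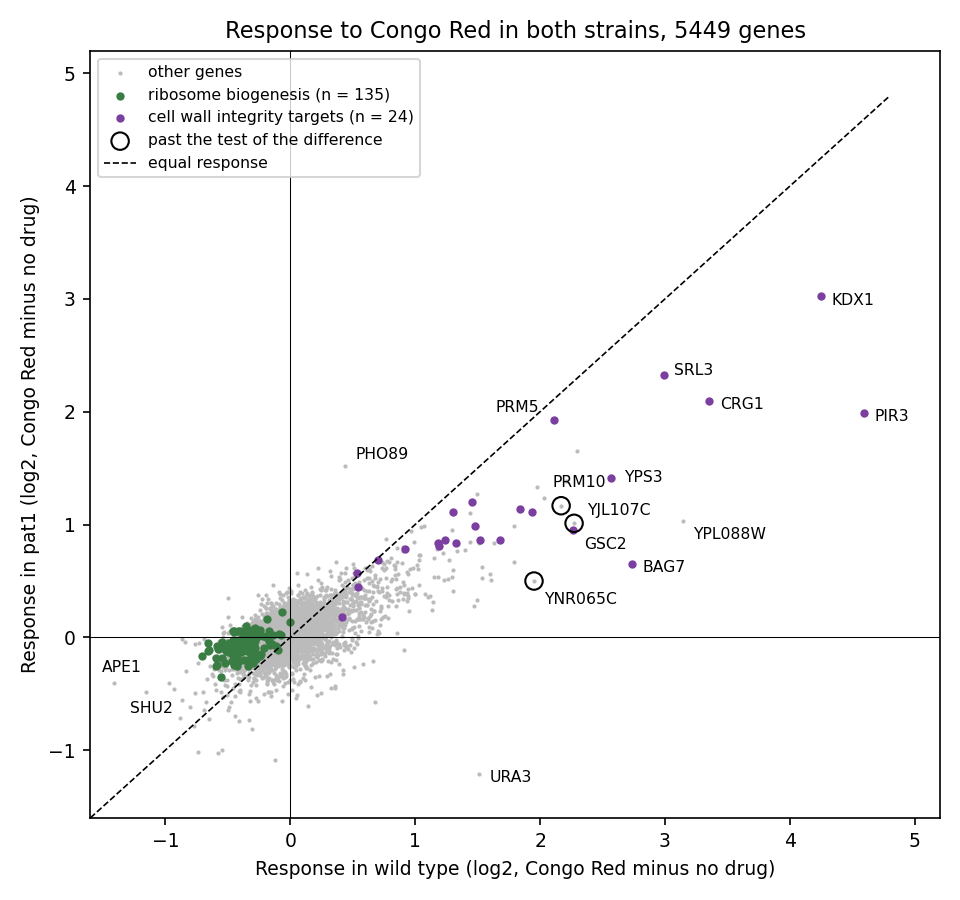
Mean response to Congo Red in wild type (horizontal axis, log2) against the mean response in pat1 (vertical axis, log2), 1 point per gene, 5449 genes; the dashed line marks equal responses. Cell wall integrity targets (24, purple) lie below the line except HSP150, 134 of 135 ribosome biogenesis genes (green) lie above it, and the circles mark the 3 genes past the test; URA3 is labelled because 2 arrays carried signal for it.

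YJL107C is a gene of unknown function. In wild type its 3 log2 signals were 6.58, 5.60 and 6.90 without drug and 8.65, 7.91 and 9.34 with Congo Red, samples in the order 1, 2 and 3. In pat1 they were 6.81, 6.64 and 6.10 without drug and 7.74, 7.65 and 7.19 with it. The untreated arrays of the strains overlapped, and every treated pat1 array lay below every treated wild type array. The paired differences were 2.07, 2.31 and 2.44 in wild type and 0.93, 1.01 and 1.09 in pat1, so the strains did not overlap and each was narrowly spread. Wild type thus had 4.83-fold and pat1 2.02-fold more signal with the drug. The difference in response was -1.26 ± 0.12 (log2, SE, n = 3 samples per strain; 95% confidence interval -1.54 to -0.98; limma adjusted p = 0.0199).

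PRM10 encodes a membrane protein of the pheromone-regulated group. Its signals were 7.82, 7.09 and 7.98 in untreated and 9.84, 9.28 and 10.28 in treated wild type. In pat1 they were 7.93, 7.78 and 7.19 without and 9.10, 9.04 and 8.26 with Congo Red. Untreated arrays overlapped again, and treated pat1 arrays were all lower than treated wild type arrays. The paired differences were 2.02, 2.19 and 2.30 in wild type and 1.17, 1.26 and 1.07 in pat1. The difference in response was -1.0 ± 0.12 (SE, n = 3 samples per strain; 95% confidence interval -1.26 to -0.74; limma adjusted p = 0.0353). PRM10 and YJL107C stand next to each other in the RefSeq gene order of assembly R64, and in related fungi the pair is annotated as one gene. The order of the 3 samples by signal was the same for both genes in each of the 4 groups.

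YNR065C encodes a protein related to the sorting receptor Vps10. Wild type gave 8.82, 8.74 and 8.66 without drug and 10.50, 10.58 and 10.99 with it. The pat1 arrays gave 9.38, 8.54 and 8.52 without drug and 10.11, 8.87 and 8.95 with it. Sample 1 of pat1 was the highest of the mutant on both of its arrays, and all treated pat1 arrays still lay below treated wild type. The paired differences were 1.68, 1.84 and 2.33 in wild type and 0.73, 0.33 and 0.44 in pat1, a 3.87-fold against a 1.41-fold response. Only the wild type response passed the test of a response (limma adjusted p = 3.79e-05, against 0.0952 in pat1), where both strains share the same estimate of the spread. The difference was -1.45 ± 0.18 (SE, n = 3 samples per strain; 95% confidence interval -1.86 to -1.04; limma adjusted p = 0.0430).

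Across the alternative settings the difference of YJL107C ranged from -1.36 to -1.15 and stayed past the threshold in 7 of 18. For PRM10 the range was -1.10 to -0.94, with 6 of 18 past the threshold, and for YNR065C -1.62 to -1.26, with 7 of 19. All 3 were past it without both samples with URA3 signal.

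**Figure D2:**
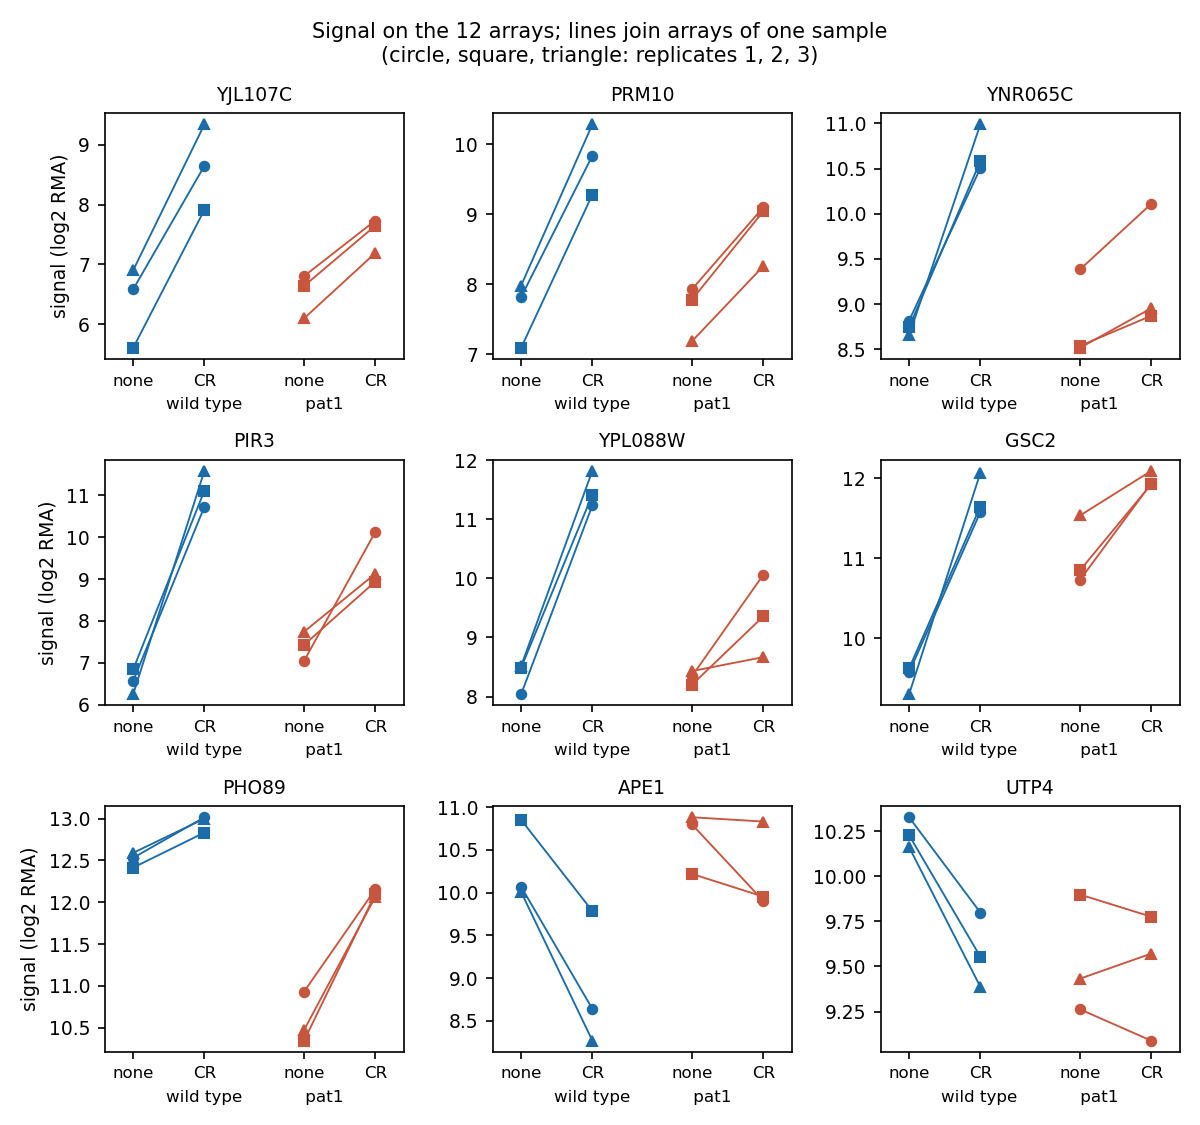
Log2 signal on all 12 arrays for 9 genes, untreated (none) and with Congo Red (CR), wild type in blue and pat1 in red; each line joins the 2 arrays of 1 biological sample, and vertical axes differ between panels. YJL107C, PRM10, YNR065C and YPL088W start alike and end lower in pat1, GSC2 starts higher and ends alike, and PHO89 starts lower and rises more in pat1.

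Beside these 3, the 9 largest of the other negative differences with non-overlapping samples were taken, of which the first was that of PIR3, a structural cell wall protein of the PIR family. PIR3 gave 6.56, 6.84 and 6.25 in untreated and 10.73, 11.11 and 11.59 in treated wild type. In pat1 it gave 7.04, 7.43 and 7.74 without and 10.13, 8.94 and 9.13 with the drug. The mutant thus started above wild type on all arrays and ended below it on all arrays. The response was 24.1-fold in wild type and 3.98-fold in pat1. The paired differences of 3.08, 1.51 and 1.39 in pat1 were the more spread of the strains, set against 4.17, 4.27 and 5.34 in wild type. The difference in response was -2.60 ± 0.46 (SE, n = 3 samples per strain; 95% confidence interval -3.63 to -1.57) and did not pass over all genes (limma adjusted p = 0.122). Without both samples with URA3 signal it was -3.30 (limma adjusted p = 0.0055).

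YPL088W, a putative aryl alcohol dehydrogenase gene, had untreated signals of 8.04 to 8.52 in wild type and 8.20 to 8.43 in pat1. With Congo Red it reached 11.23 to 11.82 in wild type and 8.67 to 10.06 in pat1. The strains thus parted under the drug alone, and the pat1 samples differed among themselves, with paired differences of 1.71, 1.16 and 0.24. The difference in response was -2.11 ± 0.31 (SE, n = 3; limma adjusted p = 0.0692). BAG7, which encodes a GTPase-activating protein for Rho1, had untreated signals of 3.75 to 3.99 in wild type, no higher than those of deleted genes, so its wild type response of 2.73 is a lower bound. One untreated pat1 array, at 4.06, lay at that level too. The difference of -2.08 ± 0.28 (limma adjusted p = 0.0508) is therefore not an exact size. Without both samples with URA3 signal YPL088W (-2.55) and BAG7 (-2.46) passed (limma adjusted p = 0.0055 for both).

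GSC2 encodes the glucan synthase subunit that is made under wall stress. It was measured at 9.57, 9.62 and 9.30 in untreated wild type and at 10.73, 10.85 and 11.54 in untreated pat1. With Congo Red the values were 11.58, 11.65 and 12.07 in wild type and 11.94, 11.93 and 12.10 in pat1. The untreated mutant was therefore above wild type on every array, and the treated strains overlapped. Its response was 4.81-fold in wild type and 1.93-fold in pat1, a difference of -1.32 ± 0.24 (SE, n = 3; limma adjusted p = 0.130). It was -1.57 without both samples with URA3 signal (limma adjusted p = 0.0289).

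Among the other genes of this group, CRG1, a methyltransferase gene, KDX1, a kinase gene paralogous to SLT2, and YPS3, an aspartic protease gene of the yapsin family, started alike in both strains and ended lower in pat1 on all treated arrays. Their differences were -1.26 ± 0.30, -1.23 ± 0.24 and -1.16 ± 0.17 (SE, n = 3; limma adjusted p = 0.221, 0.161 and 0.0692). KDX1 kept the largest response of any gene called in pat1, 8.13-fold against 19.1-fold in wild type. TMA10, which encodes a ribosome-associated protein, and RTC3 showed another pattern. Without both samples with URA3 signal CRG1 (-1.75), KDX1 (-1.63), TMA10 (-1.57) and YPS3 (-1.11) passed (limma adjusted p = 0.0122, 0.0055, 0.0091 and 0.0469), and RTC3 did not. RTC3 was higher in every untreated pat1 array (9.65 to 10.71, against 7.81 to 9.49 in wild type), and its paired differences were all above 0 in wild type and all below 0 in pat1. Such opposite signs in all samples occurred in 25 genes (0.459%), and the reverse, below 0 in wild type and above 0 in pat1, in 104 (1.91%).

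**Figure D3:**
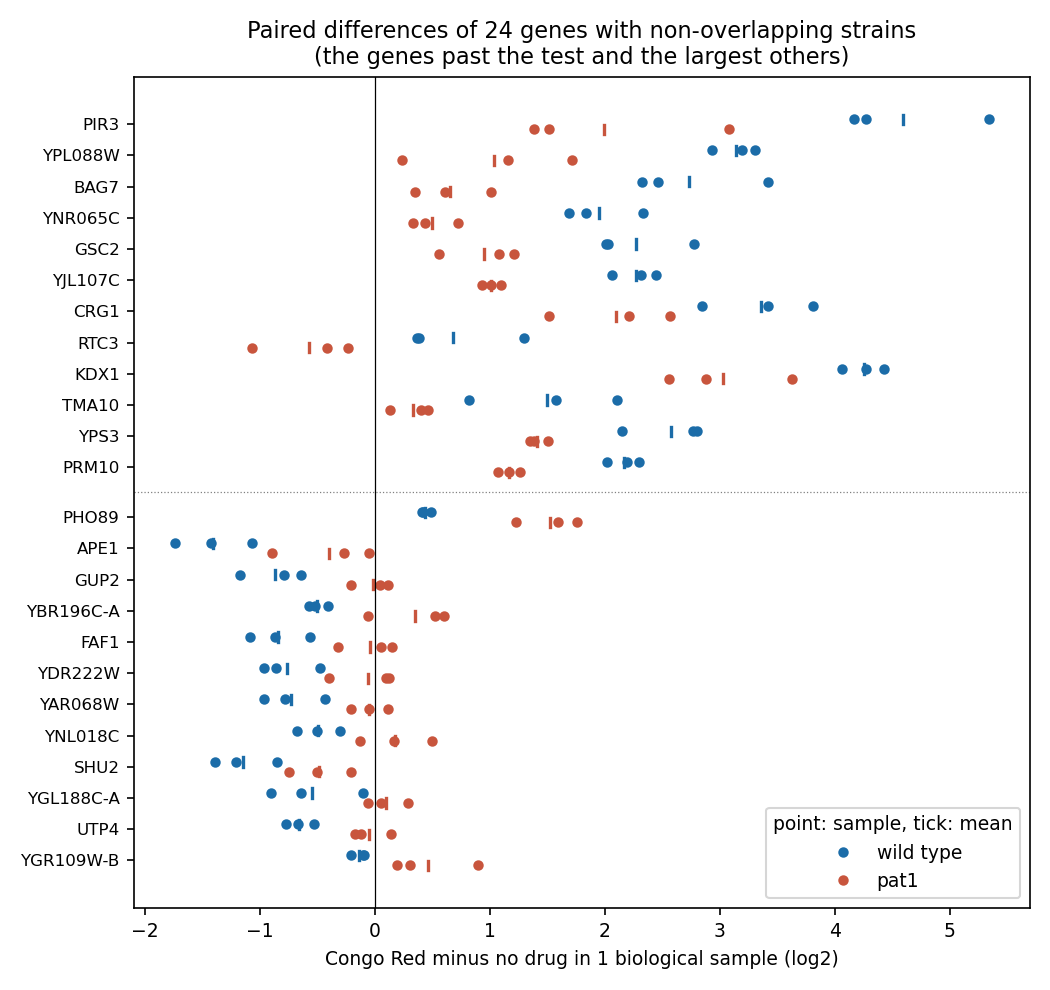
The 6 paired differences (Congo Red minus no drug, log2) of 24 genes whose strains did not overlap, namely the 3 past the test with the 9 largest other negative differences in response, and the 12 largest positive ones; each point is 1 biological sample, ticks are means, and the dotted line parts the directions. The genes above it, RTC3 apart, have means above 0 in both strains with pat1 below wild type; most genes below it lie under 0 in wild type and near 0 in pat1.

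Positive differences were smaller. In all of the 12 largest except PHO89, the mean signal in wild type was lower with Congo Red than without. This was least so for YGR109W-B, at 7.28 without and 7.14 with the drug. PHO89, which encodes a sodium-coupled phosphate transporter, rose instead. It gave 12.53, 12.41 and 12.59 in untreated and 13.01, 12.83 and 13.00 in treated wild type. In pat1 it gave 10.93, 10.35 and 10.47 without and 12.15, 12.10 and 12.06 with the drug. Every pat1 array lay below every wild type array of the same treatment, and the gap narrowed with Congo Red from -1.93 to -0.84. Both strains rose, by 0.44 in wild type and 1.52 in pat1, and the difference of 1.08 ± 0.14 (SE, n = 3 samples per strain; 95% confidence interval 0.76 to 1.41) was the first gene to miss the threshold (limma adjusted p = 0.0505). It passed without both samples with URA3 signal (1.23, limma adjusted p = 0.0055).

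APE1, a vacuolar aminopeptidase gene, fell in wild type, from 10.07, 10.85 and 10.01 to 8.64, 9.78 and 8.27. In pat1 the values were 10.80, 10.22 and 10.88 without and 9.90, 9.95 and 10.83 with Congo Red, so treated pat1 arrays were all above treated wild type arrays. The difference was 1.01 ± 0.23 (SE, n = 3; limma adjusted p = 0.221), and 1.43 without both samples with URA3 signal, where it passed (limma adjusted p = 0.0055). GUP2, a homolog of GUP1, had 0.86, and FAF1, which acts in pre-rRNA processing, had 0.80. SHU2, of the Shu complex of recombinational repair, fell by 1.15 in wild type and gave -0.49 in pat1. UTP4, of the small subunit processome, fell by 0.66 in wild type and gave -0.05 in pat1. The other 6 of the 12 were YBR196C-A, YDR222W, YAR068W, YNL018C, YGL188C-A and the Ty3 element gene YGR109W-B, with differences of 0.60 to 0.85. YNL018C and YGL188C-A lay close to the level of deleted genes. With all 6 samples none of the positive differences passed over all genes, and without both samples with URA3 signal PHO89 and APE1 did.

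Fewer genes passed the test of the response in pat1 than in wild type, in both directions. In wild type 769 genes passed, 448 that rose (8.22%) and 321 that fell (5.89%). In pat1 126 passed, 107 that rose (1.96%) and 19 that fell (0.349%). Of these, 114 were called in both strains in the same direction, 12 in pat1 alone, and none in opposite directions. Both tests used the same estimate of the spread of each gene, taken over all 6 paired differences. The counts therefore do not reflect the spread of each strain by itself. They also depended on how the spread was estimated, and without the pairing they were 146 and 36. The wild type count was 383, 417 and 154 without wild type sample 1, 2 or 3, and the pat1 count was 81 and 72 without pat1 sample 1 or 3. Both responses share arrays with the difference, so they are its terms and not separate evidence.

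The 448 genes that rose in wild type had a median response of 0.54 there and 0.31 in pat1. In 431 of them the mean was smaller in pat1, and in 185 (41.3%) all 3 pat1 differences lay below all 3 of wild type, against 5.56% of all genes. The 321 genes that fell had medians of -0.41 and -0.11, and in 310 the change was smaller in pat1. In 176 (54.8%) the pat1 differences lay above those of wild type, against 12.6% of all genes. These genes were chosen on wild type values, which favours a larger value in wild type. The 107 genes that rose in pat1 were chosen on the mutant's values, and 95 of them still had the larger mean in wild type, with medians of 0.87 in wild type and 0.64 in pat1. For the 19 that fell in pat1 the medians were -0.48 in wild type and -0.58 in pat1, and in 14 the change was larger in pat1.

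The 68 genes that rose at least 2-fold in wild type were likewise chosen on wild type values, so their counts are a description. All 68 had a smaller mean response in pat1, and 44 passed in pat1 as well. The median log2 response was 1.44 in wild type and 0.80 in pat1, and the median gene reached 55.1% of its wild type log2 response. In 47 (69.1%) the pat1 differences all lay below those of wild type, against 5.56% of all genes. On the treated arrays pat1 lay below wild type in 41 and above it in 3 of the 68, and on the untreated arrays above in 10 and below in 4. Across all genes treated pat1 arrays lay below in 11.5% and above in 18.2%, and untreated ones above in 12% and below in 14.9%.

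The spread between samples was larger in the mutant. The median SD of the 3 paired differences was 0.120 in wild type and 0.168 in pat1, and it was larger in pat1 for 3745 genes (68.7%). The median SE of the difference in response was 0.128 over all genes, about as large as the median absolute difference of 0.132. For most genes a difference of that size could not be told from the spread between 3 samples per strain. For a single value, an exact permutation test of 3 against 3 cannot give a two-sided p below 0.1.

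Non-overlapping paired differences occurred in 990 genes (18.2%), 687 higher in pat1 (12.6%) and 303 lower (5.56%). This split rested on the scaling of the arrays. Treated pat1 array 3 had the highest median, 9.70 against 9.53 to 9.60 on the others, and the median paired difference of pat1 sample 3 was 0.12 against -0.048 to 0.032 in the other 5. With each array centred on its median the split was 512 higher (9.4%) and 498 lower (9.14%), with quantile normalization 579 and 437, and with cyclic loess 442 and 532. The share higher in pat1 was thus 69.4% as deposited and 50.7%, 57.0% and 45.4% under these scalings. The median difference over all genes was 0.058 as deposited and -0.0055, 0.018 and -0.010 with the scalings in that order. Counts of lists below are read against the split of the same scaling.

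Cell wall integrity targets are genes whose transcription rises through Slt2 when the wall is damaged, and 24 of 25 listed were measured. All 24 rose in wild type, against 8.22% of all genes, with a median of 1.5. In pat1 20 rose, against 1.96% of all genes, with a median of 0.91. This list, like the others, was written with earlier results of these data known. That choice may favour a larger response in wild type, so its counts are a description. The difference in response was below 0 in 23 of 24 and had a median of -0.49, against 36.8% below 0 and a median of 0.058 over all genes. In 12 the pat1 differences all lay below those of wild type, against 5.56% of all genes, and in none above. None of the 24 passed the test of the difference over all genes in limma. Without both samples with URA3 signal 9 of the 24 did, against 47 of all 5449 genes. These were PIR3, BAG7, CRG1, KDX1, GSC2, YPS3, MTL1, YPK2 and PTP2. In that comparison of 2 samples with 2, 21 were lower without overlap, against 18.2% of all genes. For this list, wild type sample 2 had the lowest median response of its strain (1.38, against 1.52 and 1.71). The median of pat1 sample 1 was the highest of the mutant (1.20, against 0.93 and 0.76). Leaving both out therefore widens the gap by construction.

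The 12 with non-overlapping samples held PIR3, BAG7, GSC2, CRG1, KDX1 and YPS3, described above, and YPK2, PST1, SLT2, PTP2, PUN1 and GFA1. PST1, a wall protein, responded by 1.51, 1.70 and 1.84 in wild type and by 0.75, 0.99 and 0.84 in pat1, a difference of -0.82 ± 0.12 (SE, n = 3; limma adjusted p = 0.0692). SLT2, the kinase itself, responded by 1.76, 1.85 and 1.92 in wild type and by 1.49, 1.26 and 0.65 in pat1. Its lowest wild type value was thus above its highest in the mutant, and the 3 mutant samples were far apart. PTP2, a phosphatase gene acting on Slt2, had -0.66, and GFA1, which starts the synthesis of the chitin precursor, -0.49. On treated arrays pat1 lay below wild type in 17 of 24 and above in none, against 11.5% and 18.2% of all genes. On untreated arrays it lay below in 2 and above in 3, against 14.9% and 12%.

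In the other 12 targets the samples overlapped, with differences from -0.66 to 0.03. The 95% confidence interval held 0 in 10 of them and lay below 0 in SRL3 (difference -0.66, interval -1.21 to -0.11, limma adjusted p = 0.348), and DFG5, a GPI-anchored wall protein gene (difference -0.35, interval -0.66 to -0.03, limma adjusted p = 0.381). CRH1, which joins chitin to glucan, and MTL1, a sensor gene, each had -0.38. PRM5, a membrane protein gene often used as a reporter of the pathway, responded by 2.04, 2.06 and 2.23 in wild type and by 1.73, 2.12 and 1.93 in pat1. Its difference was -0.18 (95% confidence interval -0.48 to 0.11). RLM1, the transcription factor gene, differed by -0.19 (95% confidence interval -0.50 to 0.11). SED1, a wall mannoprotein, differed by -0.02 (95% confidence interval -0.39 to 0.35), and HSP150, a PIR family member, by 0.03 (95% confidence interval -0.25 to 0.32). BAG7, MTL1, SVS1 and PIR1 were the 4 not called in pat1.

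**Figure D4:**
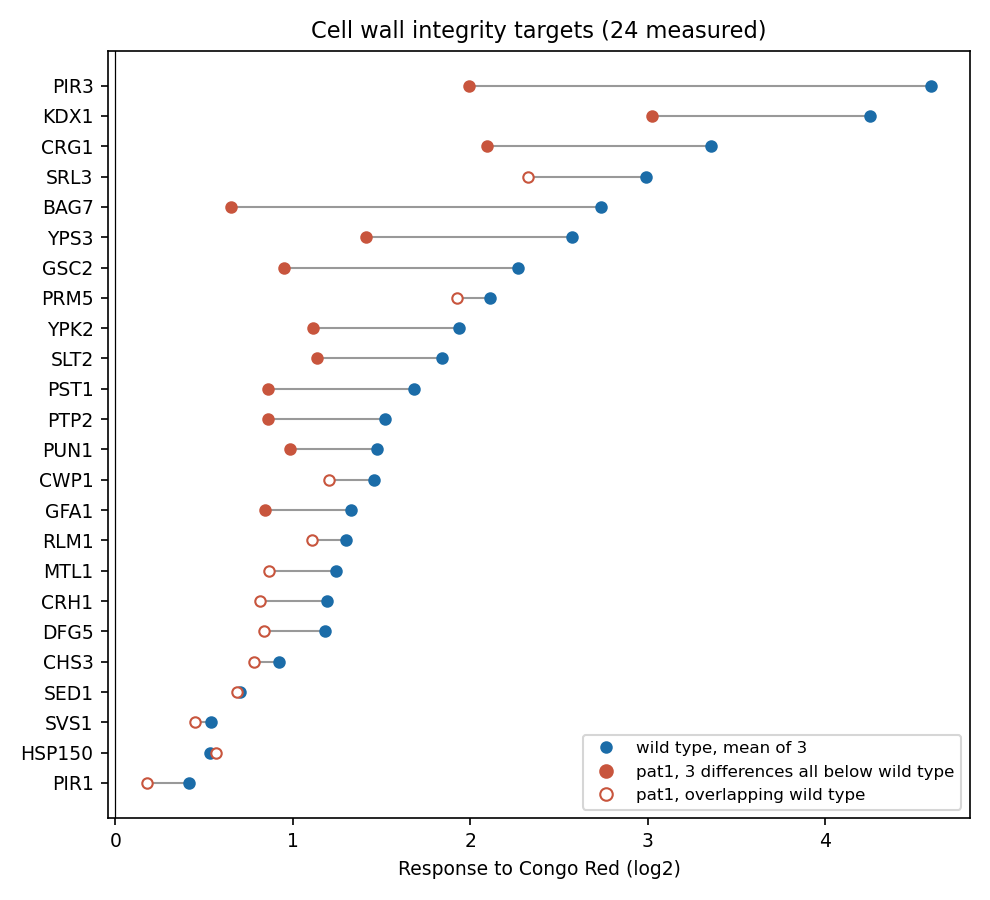
Mean response to Congo Red (log2) of the 24 measured cell wall integrity targets in wild type (blue) and pat1 (red), ordered by the wild type response; filled red points mark the 12 genes whose 3 pat1 differences all lie below the 3 of wild type. The gap is widest for PIR3 and close to 0 for SED1 and HSP150; untreated BAG7 in wild type lay at the level of deleted genes.

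Components of the pathway itself, 28 genes from sensors to phosphatases, had a median difference of 0.02. Of these, 9 rose in wild type and 5 in pat1, against 8.22% and 1.96% of all genes. Lower without overlap were 5 (17.9%, against 5.56% of all genes), BAG7, SLT2, KDX1, PTP2 and MSG5, the first 4 of which also stand on the target list. Higher were 2 (7.14%, against 12.6%), WSC3, a sensor gene, and MKK2, a kinase gene of the cascade, both named after their values were seen. With arrays centred none were higher and 8 were lower, against 9.4% and 9.14% of all genes. MSG5, a further phosphatase gene of Slt2, rose by 1.12 in wild type and gave 0.37 in pat1 (difference -0.75 ± 0.16, limma adjusted p = 0.188). Among 41 genes that make or remodel glucan and chitin, 18 rose in wild type and 11 in pat1. There, 10 were lower without overlap (24.4%, against 5.56% of all genes) and 3 higher (7.32%, against 12.6%), and the median difference was -0.04. EXG2, a glucanase gene, rose by 0.91 in wild type and 0.47 in pat1. The 28 cell wall mannoproteins had a median difference of -0.02, with 6 lower (21.4%) and 3 higher (10.7%) without overlap, against the same shares of all genes. As deposited, their median response per sample was instead higher in pat1, at 0.09 to 0.19 against 0.03 to 0.06 in wild type. This small gap depends on the scaling. With arrays centred the median difference of the list was -0.08. Without overlap 1 was then higher and 7 lower, against 9.4% and 9.14% of all genes.

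Ribosome biogenesis genes encode the factors that process rRNA and assemble ribosomal subunits. The list also holds genes of rRNA transcription, such as RPA190 and RRN3, and the regulator genes SFP1 and TOD6. In wild type 82 of 135 fell, against 5.89% of all genes, with a median of -0.37. In pat1 the median was -0.07 and none of the 135 passed, where 0.349% of all genes fell and 1.96% rose. That no member fell in pat1 is thus near the share of all genes. The difference was above 0 in 134 of 135, against 3443 of all 5449 genes. Its median was 0.31, against 0.058 over all genes. In 66 (48.9%) the pat1 differences all lay above those of wild type, against 12.6% of all genes, and in none below. With each array centred on its median it was 59 of 135, against 9.4% of all genes, and the median was 0.25. No member passed the test of the difference over all genes, with all samples or without both samples with URA3 signal. In the latter setting 103 were higher without overlap, against 28.9% of all genes.

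The median response of the list was -0.24, -0.35 and -0.55 in wild type samples 1, 2 and 3 and -0.13, -0.14 and 0.09 in pat1. All 3 wild type values lay below all 3 of the mutant, and pat1 sample 3, whose treated array had the highest median over all genes, gave the only one above 0. UTP4 had the largest difference, 0.61 ± 0.12 (SE, n = 3; 95% confidence interval 0.32 to 0.89; limma adjusted p = 0.169), from paired differences of -0.53, -0.67 and -0.77 in wild type and -0.17, -0.12 and 0.14 in pat1. UTP4 was lower in every untreated pat1 array (9.26 to 9.90) than in untreated wild type (10.16 to 10.33), and the treated strains overlapped. DHR2 and FAL1, both RNA helicase genes, and SDA1, which acts in export of the large subunit, each had 0.54. Over the whole list 10 genes were higher and 5 lower in untreated pat1 without overlap, against 12% and 14.9% of all genes. With Congo Red 48 were higher and 1 lower, against 18.2% and 11.5%. Cytosolic ribosomal protein genes did not show such values: the median difference of the 127 measured was 0.03, with 15 higher without overlap (11.8%, against 12.6% of all genes). With arrays centred 1 was higher and 3 were lower, against 9.4% and 9.14% of all genes.

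Most general stress effectors listed here are targets of Msn2 and Msn4, which respond to many kinds of stress. The list also holds regulators, namely MSN2 and MSN4 themselves, RIM15 and GIS1 among them. Of 48 genes, 12 rose and 1 fell in wild type, against 8.22% and 5.89% of all genes. In pat1 1 rose and 4 fell, against 1.96% and 0.349% of all genes, so the count that rose is near the overall share. The medians were 0.17 in wild type and -0.14 in pat1. The difference was below 0 in 45 of 48, against 36.8% of all genes, with a median of -0.37. In 17 (35.4%) the pat1 differences all lay below those of wild type, against 5.56% of all genes. In 1, RIM15, they lay above, against 12.6% of all genes. None passed over all genes in limma, and 6 did without both samples with URA3 signal, against 47 of all 5449 genes. Among the 6 were TMA10, HSP12 (-1.31, limma adjusted p = 0.0055) and PGM2 (-0.92, limma adjusted p = 0.0228). Wild type sample 2, left out there, had the lowest median response of its strain for this list (-0.0009, against 0.27 and 0.31). The 4 that fell in pat1 were PGM2 and CTT1, coding for phosphoglucomutase and catalase, DDR2 and YGP1, the last of which fell in wild type too.

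Levels of these genes differed widely between samples of a strain. Their mean signal was 8.72, 9.47 and 8.68 in untreated and 9.0, 9.48 and 9.03 in treated wild type, samples in order. In pat1 it was 9.48, 9.41 and 10.18 without and 9.29, 9.28 and 10.03 with Congo Red. Wild type sample 2 and pat1 sample 3 were high on both of their arrays, and wild type sample 2 gave almost the same mean without and with the drug. Without drug 13 of the 48 were higher and 1 lower in pat1 without overlap, against 12% and 14.9% of all genes. HSP12, which encodes a membrane-stabilising stress protein, ran from 8.67 to 12.48 in untreated wild type and from 11.63 to 13.82 in untreated pat1. Its paired differences were 0.90, 0.01 and 1.09 in wild type and 0.01, -0.28 and -0.34 in pat1. The smallest wild type value was that of sample 2, which began at the level of the mutant. The part of this starting level in the difference in response was not tested.

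CTT1 had 6.83, 7.55 and 6.94 in untreated and 6.96, 7.49 and 7.02 in treated wild type. In pat1 it had 8.63, 8.46 and 9.98 without and 7.86, 8.14 and 9.44 with Congo Red. The mutant was above wild type on every array of the same treatment, and the gap narrowed from 1.92 to 1.33 with the drug. CTT1 was 1 of the 12 genes called in pat1 alone. By the size of the difference the other 7 described were PGM2, DDR2, CYC7, GSY1, IZH4, FRE5 and GPI18, and only GPI18 rose. CYC7, an isoform of cytochrome c, fell by 1.03 in pat1 and gave -0.58 in wild type, where the 3 samples gave -0.05, -1.35 and -0.34 and so spanned the mutant's values of -1.19, -0.94 and -0.95.

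Genes of trehalose and glycogen, of respiration and of glucose repression had median differences of the same sign as the stress genes, at smaller size. The 22 trehalose and glycogen genes, some of which are also on the stress list, had a median difference of -0.23, with 8 lower without overlap (36.4%, against 5.56% of all genes) and none higher (against 12.6%). PGM2 had -0.74 and GLC3, the branching enzyme of glycogen, -0.49. Of 52 nuclear-encoded respiratory genes, 48 had a difference below 0, against 36.8% of all genes, with a median of -0.13. Lower without overlap were 10 (19.2%, against 5.56% of all genes), and none were higher (against 12.6%). CIT1, a citrate synthase gene, rose by 0.72 in wild type and gave 0.11 in pat1, a difference of -0.61 ± 0.18 (SE, n = 3; limma adjusted p = 0.309). The 35 glucose-repressed genes had a median of -0.16, with 10 lower (28.6%) and none higher without overlap. The 17 osmotic stress and glycerol genes had -0.16, with 5 lower (29.4%) and 2 higher (11.8%). The shares of all genes were 5.56% lower and 12.6% higher, so the 2 that were higher are near the overall share. HAL1, a halotolerance gene, rose by 2.03 in wild type and 1.23 in pat1, and GPP2, a glycerol phosphatase gene, rose by 0.51 in wild type and gave -0.26 in pat1.

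The lists described next had median differences between -0.06 and 0.13, against 0.058 over all genes. For 43 genes of mRNA deadenylation, decapping and decay, among which Pat1 acts, the median difference was 0.11, with 5 higher (11.6%, against 12.6% of all genes) and 1 lower (2.33%, against 5.56%) without overlap. LSM1, which encodes a partner of Pat1 in the Lsm1-7 ring, had -0.20, -0.25 and -0.26 in wild type and 0.40, -0.03 and 0.07 in pat1 (difference 0.38 ± 0.13, limma adjusted p = 0.329). DCS1, a scavenger decapping enzyme gene, had -0.46. The 27 genes of the phosphate regulon had a median of 0.13. Without overlap 8 were higher (29.6%, against 12.6% of all genes) and 2 lower (7.41%, against 5.56%). With arrays centred it was 3 and 3, near the shares of all genes of 9.4% higher and 9.14% lower. PHO5, an acid phosphatase gene, fell by 0.47 in wild type and gave 0.04 in pat1, at signals of 10.99 to 12.07 in wild type and 7.90 to 9.86 in pat1 over both treatments. The calcineurin targets had a median of -0.06 over 14 genes, heat shock genes 0.01 over 31, the proteasome -0.04 over 36 and the unfolded protein response 0.02 over 26.

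**Figure D5:**
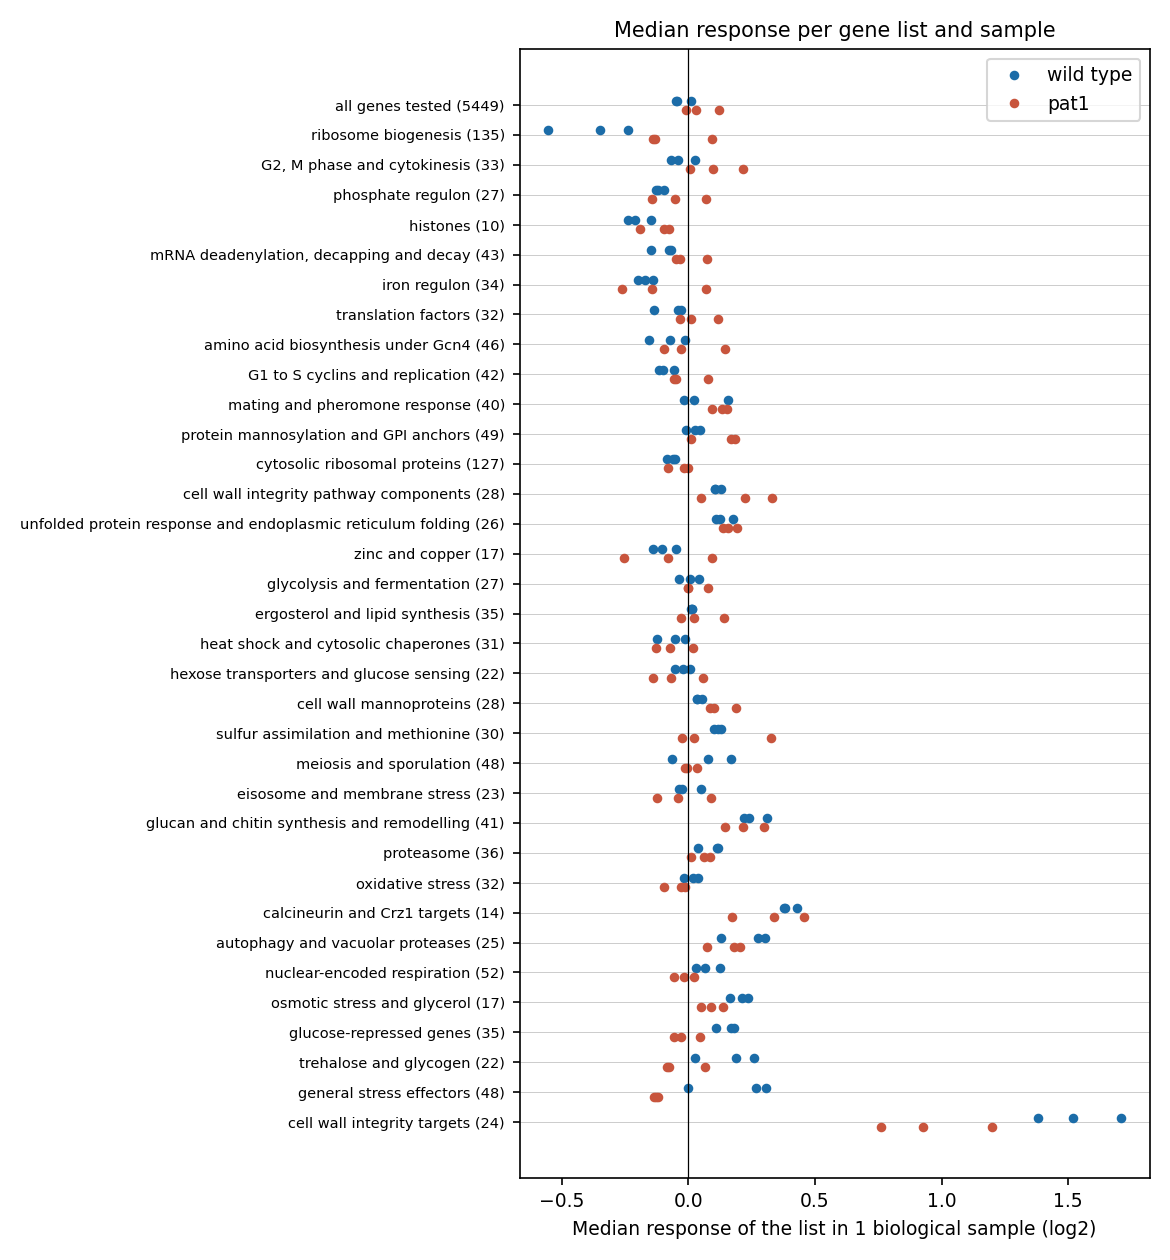
Median response to Congo Red (log2) of 34 gene lists and of all genes tested, 1 point per biological sample, wild type in blue and pat1 in red, with the number of measured genes in brackets; lists are ordered by the median difference in response. With values as deposited, the sample medians of the strains do not overlap in 8 lists. They lie higher in pat1 for ribosome biogenesis, mRNA decay and cell wall mannoproteins, and lower for cell wall integrity targets, general stress effectors, glucose-repressed genes, osmotic stress and respiration. The gaps of mRNA decay and of cell wall mannoproteins are small and depend on the scaling of the arrays.

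Further genes with an adjusted p between 0.05 and 0.1 were FLC1 and, named after their values were seen, MCH5 and YPS6. MCH5, a riboflavin transporter gene, rose by 1.63 in wild type and 0.84 in pat1 (difference -0.79 ± 0.13, limma adjusted p = 0.0823). YPS6, a further yapsin gene, rose by 1.53 in wild type and gave 0.52 in pat1 (difference -1.01 ± 0.17, limma adjusted p = 0.0980). Both passed without both samples with URA3 signal, at -0.87 and -1.19 (limma adjusted p = 0.0438 and 0.0197). FLC1, a flavin carrier gene of the endoplasmic reticulum, rose by 1.14 in wild type and gave 0.31 in pat1, with paired differences of 0.99, 1.06 and 1.38 against 0.23, 0.35 and 0.36 (limma adjusted p = 0.0711). Its untreated arrays overlapped between strains and its treated pat1 arrays all lay below those of wild type.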

How the data were processed

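The deposited table holds log2 values per probe set. The authors used RMA, version unstated, per the submitters' processing notes. RMA corrects background, quantile-normalizes across arrays and summarises probes. No genome build is named in the sources used here and no coordinates are printed. Single probes were not analysed here. The values were used without further scaling and without a filter on low values. The table had 5739 probe sets, of which 23 were array controls and 218 were without a listed gene. The other 5498 had 1 symbol from the platform annotation, brought up to date through the RefSeq gene table of assembly R64 (12 symbols changed). For 47 genes with several probe sets the brightest was used, which gave 5449 genes, 114 of them on probe sets that may bind related transcripts. Precision is limited by the number of arrays, which have no read depth.

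R 4.3.3 with limma 3.58.1 fitted the 6 paired differences with a mean per strain (lmFit and eBayes, 4 residual degrees of freedom), and summaries and plots were made in Python 3.11.15 (pandas 2.3.3, matplotlib 3.10.9). Standard errors and intervals come from the moderated fit, and p-values were adjusted over all 5449 genes. In that fit both strains share the same estimate of the spread of each gene. The steps were tested on simulated data. Pairing follows the series' design text. As a check, the deviations from group means of 2 arrays with the same strain and number correlated across genes. In wild type r was 0.648, 0.801 and 0.782, and pat1 had 0.616, 0.732 and 0.668, all above the bound of 0.1.

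Gene lists were written from general knowledge of yeast. The members and lists were chosen with earlier results of these data known. RPP1, a subunit of RNase P, was left out of the ribosomal proteins. Lists are described by counts and medians beside those of all genes, with no test, and some share genes. Non-overlapping means that all 3 values of one strain lie above all 3 of the other. Named genes were PAT1, all genes past the threshold, the largest differences without overlap filled to 12 per direction, all cell wall integrity targets, up to 4 per list with the largest difference, up to 10 per strain and direction with the largest response, and up to 8 called in pat1 alone. Values in every array are given for those past the threshold, the first of each direction and some further examples. Promoter motifs were not searched, and no sequences are shown. Alternatives were other scalings, pairings, eBayes settings, weights, thresholds, probe set rules, no dim genes, and samples left out.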

Additional observations from a re-analysis of the deposited data

Results flagged for a closer look

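A difference in response that passed the test of the difference itself was the reason to single out 3 genes. For YJL107C the response in pat1 minus that in wild type was -1.26 (limma adjusted p = 0.0199), for PRM10 it was -1.0 (limma adjusted p = 0.0353), and for YNR065C it was -1.45 (limma adjusted p = 0.0430). All 3 pat1 samples lay below all 3 wild type samples in each. Groups of 3 are too small for the test of a single sample far from the others, so none was made.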

How the results depend on the processing

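The count of 3 genes with a difference in response was 4 with quantile normalization and 3 with a 2-fold minimum. It became 0 without the replicate block, with the number as a replicate block across strains, with cyclic loess, with trend and robust eBayes, without moderation, without wild type sample 2 and pat1 sample 3, and at an adjusted p under 0.01 (limma; 130 to 762 genes then had an unadjusted p under 0.05). It was 1 with centred arrays, 5 with the mean of probe sets, 7 without the dimmest 25% of genes, 11 with a random block (1 gene shared) or at an adjusted p under 0.1, 33 with array weights and 47 without both samples with URA3 signal. Leaving out 1 sample gave 0 to 10. The wild type count of 769 was 146 without the replicate block, 139 without moderation, 1678 with array weights, 281 and 1156 at adjusted p under 0.01 and 0.1, 70 at 2-fold and 154 to 1044 with 1 sample left out. The pat1 count of 126 was 36 without the replicate block, 66 with trend and robust eBayes, 4 without moderation, 59 without wild type sample 2 and pat1 sample 3, 48 and 220 at adjusted p under 0.01 and 0.1, 21 at 2-fold, and 72 to 113 with 1 sample left out. Fewer samples or stricter thresholds account for some of these by construction, and for the rest the cause was not tested. Of 3253 values of single named genes 3113 kept their direction and their side of the threshold, 67 newly passed and 35 no longer passed. Most of these values belong to genes that did not pass in the main fit, so the first count says little about the calls. The 35 all belong to YJL107C, PRM10 and YNR065C, which stayed past the threshold in only 7 of 18, 6 of 18 and 7 of 19 alternatives. Another 36, small in the main fit, turned sign and passed in neither fit. ADH2 (to 0.0716) and ARG3 (to 0.124), larger in the main fit, also turned sign without both samples with URA3 signal. The medians of cell wall integrity targets (-0.66 to -0.43), general stress effectors (-0.50 to -0.28), ribosome biogenesis (0.23 to 0.38), trehalose and glycogen (-0.32 to -0.20) and respiration (-0.20 to -0.10) kept their sign in 19 of 19 alternatives, while those of pathway components and of heat shock genes kept it in 11. Same-numbered samples of different strains were not paired: their paired differences correlated at 0.386, 0.134 and -0.312 as deviations from the strain means.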

Other observations

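Smaller gene groups that are not described above held a few sizeable differences, none past the threshold over all genes with all 6 samples. SPO11, which encodes the nuclease that starts meiotic recombination, responded by 1.47, 0.88 and 2.05 in wild type and by 1.05, 0.05 and -0.25 in pat1. The samples overlapped, and the difference was -1.19 (95% confidence interval -2.01 to -0.36, limma adjusted p = 0.309). It was -1.86 without both samples with URA3 signal (limma adjusted p = 0.0055). MET28, a transcriptional regulator of sulfur metabolism, responded by 1.10, 0.61 and 1.01 in wild type and by -0.72, 0.10 and 0.28 in pat1 (difference -1.02, limma adjusted p = 0.232). It was -0.87 without both samples with URA3 signal (limma adjusted p = 0.0256). It was higher in untreated pat1 on every array, at 6.72 to 7.36 against 5.87 to 6.27. AFR1, a gene of pheromone adaptation and mating projection shape, rose by 2.29 in wild type and 1.65 in pat1, with no overlap between the paired differences and a treated level lower in pat1.

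In the iron regulon HMX1, a heme oxygenase gene, had a difference of -0.59, while the siderophore transporter gene SIT1 fell by 0.51 in wild type and had a difference of 0.38. ATR1, a multidrug transporter gene, fell by 0.48 in wild type and gave 0.11 in pat1. DAN1, a wall mannoprotein gene, had a difference of -0.96 that came from pat1 sample 1 (-2.29, against -0.39 and -0.57 in the other pat1 samples), the sample whose untreated array carried URA3 signal. DIA1 rose by 2.26, 2.05 and 2.31 in wild type and by 0.39, 1.93 and 1.84 in pat1, with the low value again in pat1 sample 1.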
